A study of Mus musculus with 9 samples.

Results

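The 10 genes described here are mesenchymal niche and bone matrix genes of the mouse bone marrow (BM): Col1a1, Col1a2, Sparc, Bglap and Dcn of the bone matrix, Cxcl12, Kitl and Igfbp5 of the stromal niche, Fabp4, and Cspg4. They were chosen by symbol, and 10 of 10 were found among the 15265 genes of the count tables. Cspg4 encodes NG2, the proteoglycan whose promoter drives the Cre recombinase of these mice.

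The libraries were made by Drop-seq, in which cells are caught in droplets with barcoded beads, from unselected BM of C57BL/6 mice 2 to 3 weeks old. The study's names for the Pot1a-flox and NG2-cre lines also include strains other than C57BL/6. The NG2-cre/Pot1a fl/fl group, in which NG2-expressing cells lose Pot1a (a telomere-binding protein), had 4 libraries, and the NG2-cre/Pot1a wt/wt control group had 5. By the genotype labels, mice of both groups carried NG2-cre, although the study's legend for these data calls the controls wildtype. Per the study this Cre acts in pericytes of the whole body, so marrow stroma is not the only tissue without Pot1a. No label says which mouse a library came from, and the study's legend names fewer mice than libraries for each group, so libraries may share a mouse and p-values reflect a spread that may in part be technical.

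Osteoblasts, the bone-forming cells, lay down a matrix of type I collagen (the chains Col1a1 and Col1a2) with non-collagen proteins such as osteonectin (Sparc), osteocalcin (Bglap) and the proteoglycan decorin (Dcn). Reticular stromal cells around the marrow vessels secrete the chemokine Cxcl12 and stem cell factor (Kitl), which act on haematopoietic stem and progenitor cells through the receptors Cxcr4 and Kit. Such cells are attached to bone and vessels and are known to be rare in marrow suspensions.

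Values are read counts per gene and barcode. Each library held 100 barcodes, and 899 of 900 passed the filters. Total counts ran from 119459 in Pot1a fl/fl 3 to 465277 in Pot1a fl/fl 1, and median counts per cell from 955.5 to 3704. Pot1a fl/fl 3 and Pot1a wt/wt 5 were the shallowest libraries. Pot1a wt/wt 2 and 3 shared 19 barcodes; none of the cells that carried most counts of the 10 genes was among them. Pot1a itself gave 10, 3, 1 and 15 counts in Pot1a fl/fl libraries 1 to 4 and 3, 9, 10, 6 and 2 in Pot1a wt/wt libraries 1 to 5, with groups that overlapped; whether the deletion had taken place in the cells described below could not be read, since the 19 cells that held 3 or more of the 10 genes had 0 Pot1a counts.

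RefSeq (GRCm38.p6) held a start-site window for 7 of the 10 genes. The 250 bases before the start are shown for Bglap and Cxcl12, a bone matrix gene and a niche factor that were found together in 0 cells: Bglap at chr3:88384467-88384716 (minus strand) and Cxcl12 at chr6:117168285-117168534 (plus strand). Capitals mark the motifs searched on both strands, namely TATAAA (the TATA box), the Runx core given as ACCACA, and CCAAT; none of these contains another.
Bglap: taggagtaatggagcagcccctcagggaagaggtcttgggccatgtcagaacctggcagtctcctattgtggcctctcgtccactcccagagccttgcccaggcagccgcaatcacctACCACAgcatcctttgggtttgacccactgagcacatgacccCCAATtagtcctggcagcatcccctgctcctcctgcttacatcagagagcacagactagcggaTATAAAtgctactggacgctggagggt
Cxcl12: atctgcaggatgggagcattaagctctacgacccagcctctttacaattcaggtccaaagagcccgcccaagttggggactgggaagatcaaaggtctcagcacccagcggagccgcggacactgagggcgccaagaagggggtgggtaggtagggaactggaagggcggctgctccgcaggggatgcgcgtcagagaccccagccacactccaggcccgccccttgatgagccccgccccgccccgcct
The Bglap window held 1 match to each motif, starting at positions -27 (TATAAA), -132 (ACCACA) and -90 (CCAAT) from the start, and the Cxcl12 window held 0 of the 3. Over all 32851 windows of this length, 12.4% held TATAAA, 14.0% held ACCACA and 33.8% held CCAAT. The windows differed in base composition as well, with 56.4% G or C for Bglap and 64.4% for Cxcl12. Of the other windows, that of the niche factor Kitl held TATAAA (at -25) and that of the matrix gene Col1a2 held CCAAT (at -109). Those of Sparc, Igfbp5 and Cspg4 held 0 of the 3, so the motifs did not separate matrix from niche genes. Bglap was counted in only 4 cells and Cxcl12 in 20, so 0 shared cells cannot tell whether they avoid each other.

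The counts of the 10 genes sat in few cells and few libraries. In all, 2599 counts were found, 2108 in the Pot1a fl/fl libraries and 491 in the Pot1a wt/wt libraries, and 157 of 899 cells held any. Pot1a fl/fl 3 alone held 1770 of them and Pot1a wt/wt 4 held 414. The other libraries held 234, 54 and 50 (Pot1a fl/fl 1, 2 and 4) against 5, 14, 10 and 48 (Pot1a wt/wt 1, 2, 3 and 5). So 1 library of each genotype led its group, and the groups overlapped. A sum over a library cannot tell fewer cells of a type from less RNA per cell.

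**Figure D1:**
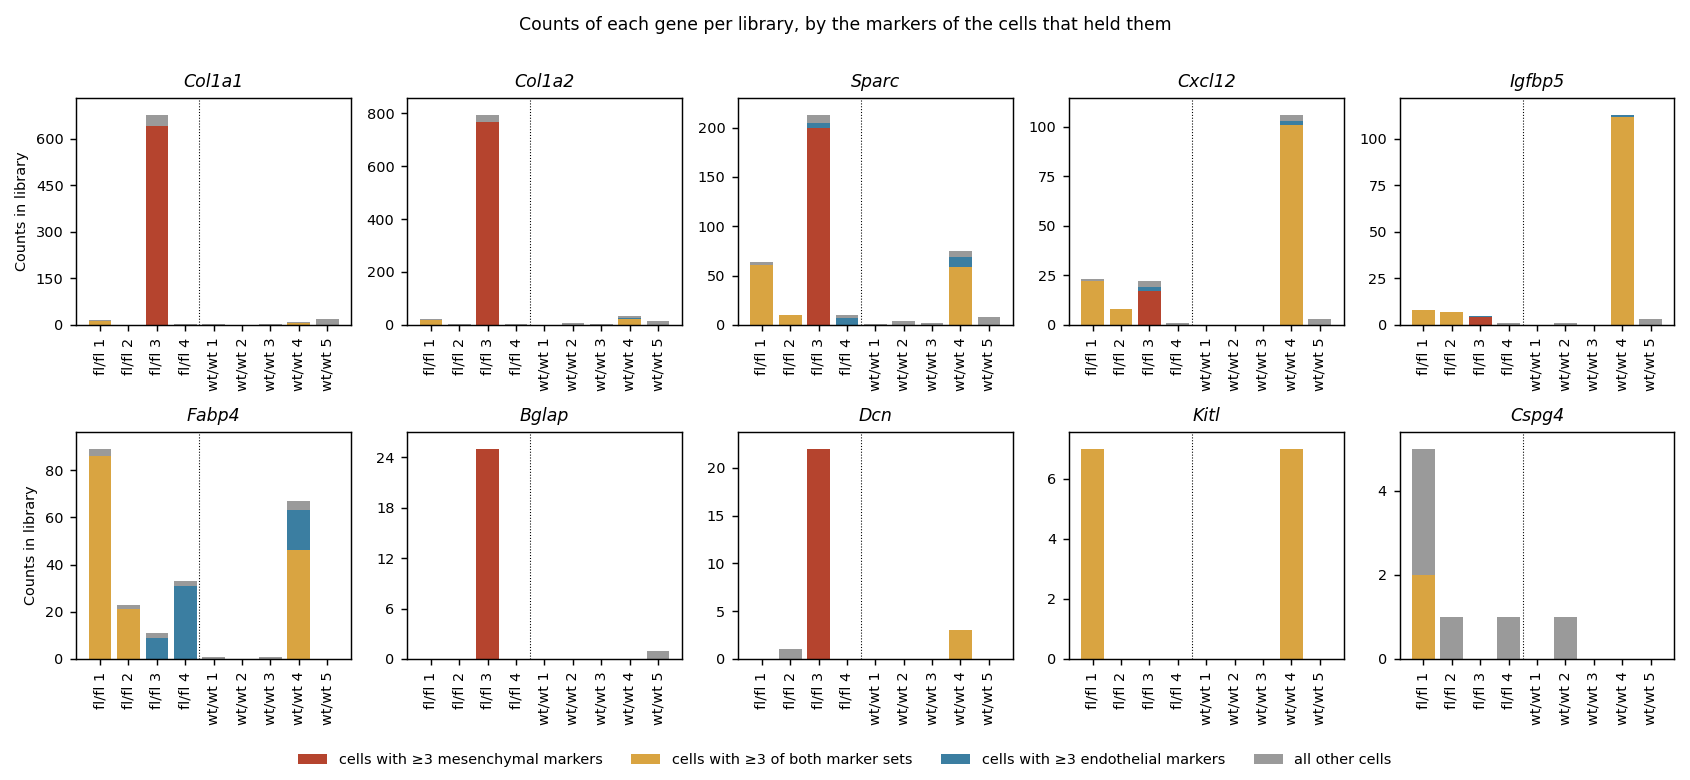
Counts of each of the 10 genes (vertical axes, each panel on its own scale) in the 4 Pot1a fl/fl libraries (left of the dotted line) and the 5 Pot1a wt/wt libraries, stacked by the markers detected in the cells that held them. Col1a1, Col1a2, Bglap and Dcn stand almost wholly in Pot1a fl/fl 3, Igfbp5 and Cxcl12 mostly in Pot1a wt/wt 4, and Fabp4 in the 4 Pot1a fl/fl libraries and Pot1a wt/wt 4.

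Of the bone matrix genes, Col1a1 (chromosome 11, 94936224 to 94953042, GRCm38), a chain of type I collagen, had 17, 0, 678 and 2 counts in Pot1a fl/fl 1 to 4, against 2, 0, 2, 8 and 20 in Pot1a wt/wt 1 to 5. Col1a2 (chromosome 6, 4504814 to 4541544), the partner chain, had 21, 4, 794 and 2 counts in Pot1a fl/fl libraries, against 1, 8, 5, 35 and 13 in Pot1a wt/wt libraries. Without Pot1a fl/fl 3, neither chain was higher in the Pot1a fl/fl group: the difference in mean CPM (counts per 1000000 counts of the library) of Col1a1 was -21.6 (exact permutation p = 0.786) and that of Col1a2 was -26.5 (p = 0.393), against 1394 and 1630 CPM with it. Sparc (chromosome 11, 55394500 to 55423183), which binds collagen and calcium in the matrix, was more widely spread, with 64, 10, 213 and 10 counts in Pot1a fl/fl libraries and 1, 4, 2, 75 and 8 in Pot1a wt/wt libraries. It was seen in 9 of 9 libraries.

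Bglap (chromosome 3, 88383501 to 88384464), the late osteoblast hormone and matrix protein, had 25 counts in Pot1a fl/fl 3 and 0 in the other Pot1a fl/fl libraries, against 1 count in Pot1a wt/wt 5 and 0 in the other Pot1a wt/wt libraries. At these depths 0 counts allow up to 6.45 CPM in Pot1a fl/fl 1 and up to 11.9 CPM in Pot1a wt/wt 1 (3 counts, counting error only). Its near-identical neighbour Bglap2 followed the same libraries, with 8 counts in Pot1a fl/fl 3 and 3 in Pot1a wt/wt 5, and Bglap3 had 1 count, in Pot1a fl/fl 3. Reads shared between the 3 copies could be split in either way, so the counts of each are uncertain. Dcn (chromosome 10, 97479609 to 97518143), a small proteoglycan that coats collagen fibrils, had 0, 1, 22 and 0 counts in Pot1a fl/fl libraries and 0, 0, 0, 3 and 0 in Pot1a wt/wt libraries. Thus the library with most Bglap also held most Dcn.

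The niche factors were distributed differently. Cxcl12 (chromosome 6, 117168535 to 117181367), which retains stem cells and B-cell precursors in the marrow, had 23, 8, 22 and 1 counts in Pot1a fl/fl 1 to 4, against 0, 0, 0, 106 and 3 in Pot1a wt/wt 1 to 5. Igfbp5 (chromosome 1, 72857932 to 72874884), which binds insulin-like growth factors, had 8, 7, 5 and 1 counts in Pot1a fl/fl libraries and 0, 1, 0, 113 and 3 in Pot1a wt/wt libraries. Kitl (chromosome 10, 100015630 to 100100416) had 7 counts in Pot1a fl/fl 1 and 7 in Pot1a wt/wt 4, and 0 in the others of both groups. For all 3, Pot1a wt/wt 4 stood at or above every Pot1a fl/fl library, while 3 Pot1a wt/wt libraries had at most 1 count of each.

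Fabp4 (chromosome 3, 10204088 to 10208576), a fatty acid carrier of adipocytes, macrophages and capillary endothelium, was present in each Pot1a fl/fl library. It had 89, 23, 11 and 33 counts there, or 191, 81.8, 92.1 and 85.9 CPM. The Pot1a wt/wt libraries had 1, 0, 1, 67 and 0 counts, or 3.97, 0, 3.05, 199 and 0 CPM. In CPM all 4 Pot1a fl/fl libraries lay above 4 of the 5 controls and below Pot1a wt/wt 4.

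Cspg4 (chromosome 9, 56865033 to 56899870) was close to the detection limit, with 5, 1, 0 and 1 counts in Pot1a fl/fl libraries against 0, 1, 0, 0 and 0 in Pot1a wt/wt libraries. These 8 counts lay in 7 cells. Of these, 1 carried mesenchymal and endothelial markers and 7 of the other 9 genes (Pot1a fl/fl 1, 2 Cspg4 counts); the other 6 had 1 count each and at most 1 marker of the 2 sets, and 4 of them were in the cluster with primary granule genes (Elane, Mpo). Imp3, which encodes a nucleolar protein and lies near Cspg4 on the same strand (56937475 to 56938398), was detected in 7 of these 7 cells. It was detected in 25.3% of the other 892 cells, namely 39.8% of 394 Pot1a fl/fl cells and 13.9% of 498 Pot1a wt/wt cells. Imp3 itself differed between the groups, at 264 ± 26.6 CPM (SD, n = 4) in Pot1a fl/fl and 63.8 ± 30.5 CPM (SD, n = 5) in Pot1a wt/wt libraries. Its exact permutation p was 0.00794 unadjusted and 0.918 adjusted over all genes. Most of the 7 cells were Pot1a fl/fl cells, so their overlap with Imp3 is confounded with genotype. The 7 cells were deep (median 5767 counts, against 2357 in the others). Among other cells at least as deep as the shallowest of them, Imp3 was detected in 66.2% of 130 Pot1a fl/fl cells and 32.6% of 129 Pot1a wt/wt cells. Whether reads near the 2 genes were assigned to either was not tested. NG2 in haematopoietic cells cannot be read from 6 single counts.

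Between genotypes, no member passed the test. With edgeR's quasi-likelihood test on the counts summed per library, 3 of the 10 genes had enough counts to be tested, and 0 of 3 passed an adjusted p of 0.05 (Benjamini-Hochberg over 4559 genes, of which 3, or 0.0658%, passed). The log2 fold change of Pot1a fl/fl over Pot1a wt/wt was 5.32 ± 1.42 (SE; adjusted p = 0.333) for Col1a2, 2.98 ± 1.06 (adjusted p = 0.457) for Sparc and 1.38 ± 0.79 (adjusted p = 0.699) for Fabp4. At an unadjusted p under 0.05 stood 2 of the 3, against 7.98% of all genes tested. DESeq2 gave an adjusted p to 759 genes, of which 12 (1.58%) passed, but to 0 of the 10, so it made no call on them. It gave only an unadjusted p to Cspg4 (0.242), Cxcl12 (0.969), Dcn (0.145) and Kitl (0.990), and no p to the other members.

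These fold changes rested on single libraries. Without Pot1a fl/fl 3, the log2 fold change of Col1a2 turned to -0.96 ± 0.75 and that of Sparc came to 0.17. Without Pot1a wt/wt 4, Fabp4 alone passed (log2 5.67 ± 0.61, edgeR adjusted p = 0.000189; 0.0709% of genes were higher and passed in that fit) and Sparc did not, at 4.98. With no filter on low counts edgeR called 6 of the 10 higher (Col1a1, Col1a2, Sparc, Bglap, Dcn and Fabp4; 0.301% of all 15264 genes) and Igfbp5 lower (0.151%). These calls are not independent, and the fit was not repeated with libraries left out. The same 3 cells of Pot1a fl/fl 3 held 87.8% of Col1a1, 85.7% of Col1a2, 96.2% of Bglap and 84.6% of Dcn counts. A single cell of Pot1a wt/wt 4 held 85 of 138 Igfbp5 counts.

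**Figure D2:**
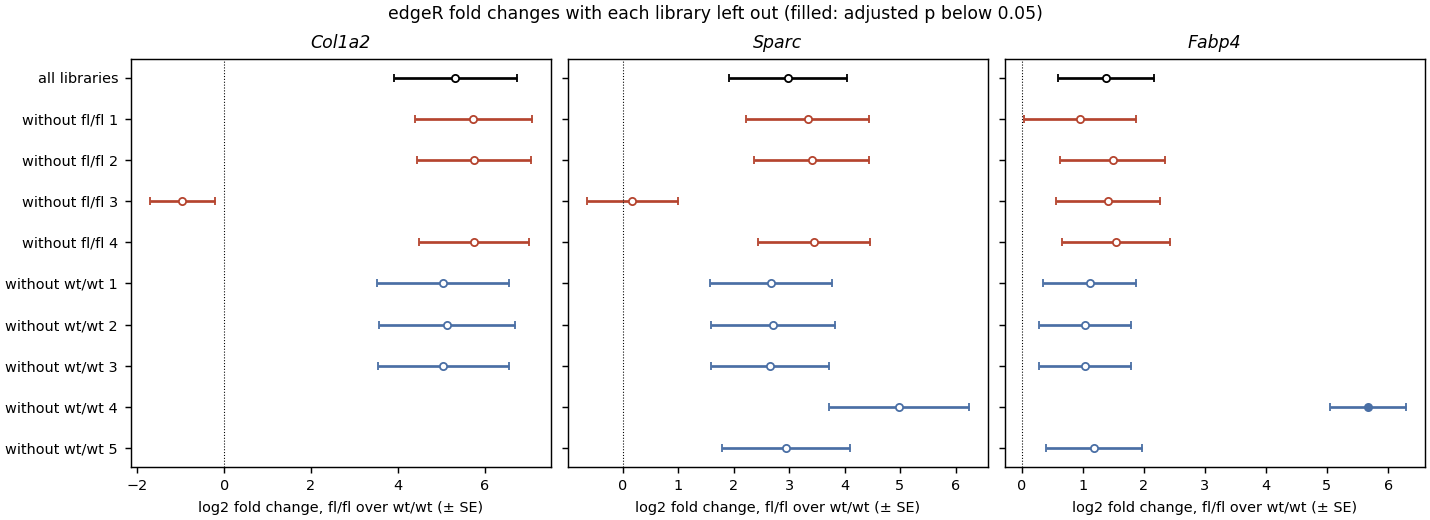
Log2 fold changes (Pot1a fl/fl over Pot1a wt/wt, ± SE, edgeR) of the 3 genes that could be tested, with all 9 libraries and with each library left out; filled points have an adjusted p below 0.05. Col1a2 falls to -0.96 without Pot1a fl/fl 3, Fabp4 reaches 5.67 without Pot1a wt/wt 4, and Col1a2 is missing where it was too sparse to be tested.

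For single genes, exact permutation of the CPM (two-sided, over the 126 divisions of the libraries) gave p under 0.05 for 0 of 10 (4.73% of all genes), the lowest being 0.127 for Cspg4. The smallest p these libraries allow is 0.00794, and no gene passed after adjustment over 15264 genes (lowest adjusted p 0.918). Mean CPM was 1429 ± 2831 (SD, n = 4) in Pot1a fl/fl libraries and 35.5 ± 58.8 (SD, n = 5) in Pot1a wt/wt libraries for Col1a1, and 113 ± 52.5 against 41.2 ± 88.2 for Fabp4. Cxcl12 averaged 66.2 ± 81.0 CPM in Pot1a fl/fl libraries and 67.2 ± 138.8 CPM in Pot1a wt/wt libraries, a difference of -0.995 CPM whose sign turned (66.5) when counts were scaled per cell. Kitl averaged 3.76 ± 7.52 CPM against 4.16 ± 9.30 CPM.

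To find which cells carried the counts, cells were sorted by 26 mesenchymal and 11 measured endothelial marker genes, none of them a member. Clustering without the 10 genes had gathered 93.0% of their counts in 1 cluster of 82 mixed cells that bore too few markers to be named, so cells with 3 or more markers of a set were counted instead. There were 18 such cells: 6 with 3 or more mesenchymal but fewer than 3 endothelial markers (the mesenchymal class), 6 with 3 or more of both sets, and 6 with 3 or more endothelial but fewer than 3 mesenchymal markers (the endothelial class). These 18 cells had 2.02% of all counts and 91.7% of the counts of the 10 genes. The mesenchymal class held 1676 (64.5%), cells with both sets 622 (23.9%), the endothelial class 86 (3.31%), and the 881 remaining cells 215 (8.27%).

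**Figure D3:**
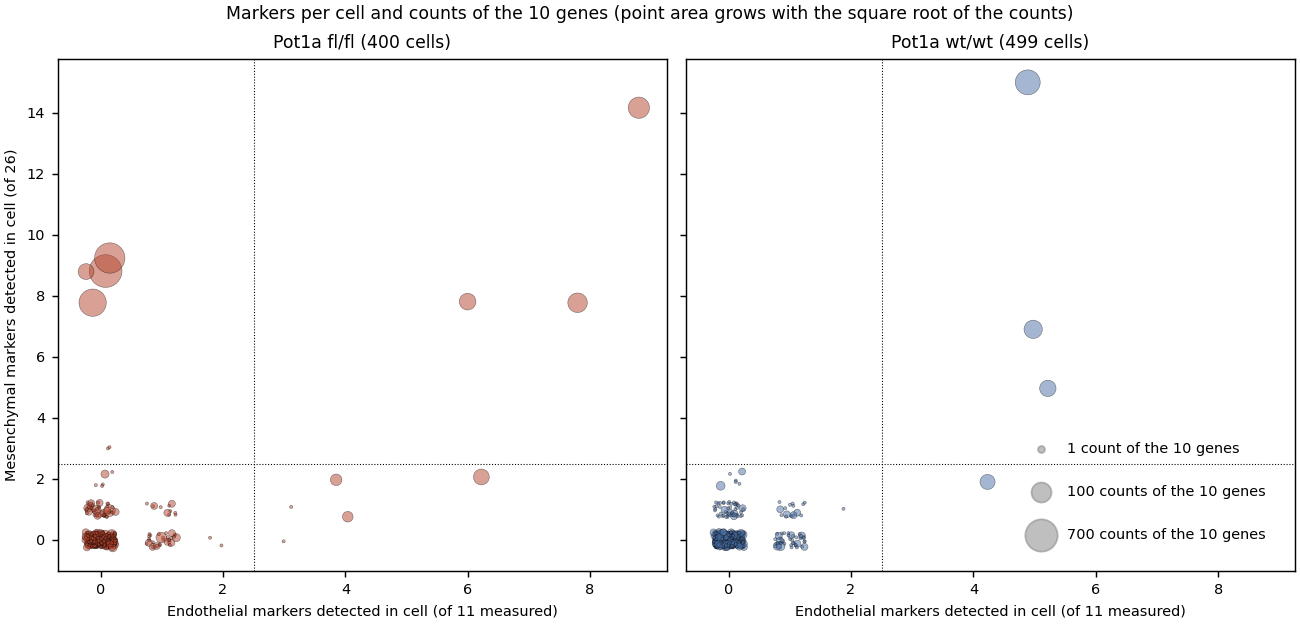
Mesenchymal markers (vertical) against endothelial markers (horizontal) detected in each of 400 Pot1a fl/fl and 499 Pot1a wt/wt cells; point area grows with the square root of the counts of the 10 genes, points are jittered, and dotted lines mark 3 markers. The 3 largest points, with 354 to 741 counts of the 10 genes, are Pot1a fl/fl cells with 8 or 9 mesenchymal and 0 endothelial markers.

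Most counts were held by 3 cells of Pot1a fl/fl 3. They held 741, 543 and 354 counts of the 10 genes, which was 56.4%, 62.3% and 27.9% of all their counts. They held Col1a1 (273, 229 and 138 counts), Col1a2 (358, 242 and 157), Sparc (89, 54 and 51), Bglap (13, 11 and 1) and Dcn (8, 7 and 7). Of the osteoblast genes among the markers, each had Ibsp, the bone sialoprotein gene (6, 2 and 4 counts), and Serpinf1, which encodes a secreted factor of osteoblasts (4, 3 and 6 counts). The transcription factors Runx2 (0, 1 and 1 count) and Sp7 (1, 0 and 0 counts) were sparse, and Spp1, Alpl and Mmp13 had 0 counts in all 3. All 3 had 0 counts of Cxcl12, Igfbp5, Fabp4, Kitl and Cspg4, and 0 endothelial markers. Together they held 640 of 729 Col1a1 counts (87.8%, exact 95% interval 85.2 to 90.1%), 757 of 883 Col1a2 counts, 25 of 26 Bglap counts and 22 of 26 Dcn counts. Their barcodes differed from each other in at least 7 letters. The matrix members thus stood in cells with Ibsp and Serpinf1 but without Spp1, Alpl or Mmp13 counts, and in the third of them 198 counts of the globin Hbb-bs stood beside them.

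In both leading libraries 1 cell held more Cxcl12 than any other cell. A shallow cell of Pot1a fl/fl 3 (466 counts) held 17 Cxcl12, 8 Col1a2, 6 Sparc, 4 Igfbp5 and 3 Col1a1 counts, with 9 mesenchymal and 0 endothelial markers. Its markers were both of adipocytes and reticular stroma (Lpl 6 counts, Adipoq 1) and of osteoblasts (Ibsp 2, Mmp13 2, Runx2 1), with Fstl1 at 5 counts and Vcam1 and Lepr at 0. A deep cell of Pot1a wt/wt 4 (5994 counts, library median 2575) held 85 Igfbp5, 78 Cxcl12, 31 Sparc, 20 Col1a2, 20 Fabp4, 4 Col1a1, 3 Dcn and 3 Kitl counts, with 15 mesenchymal markers (Lpl 51 counts, Vcam1 33, Adipoq 7, Lepr 3) and 5 endothelial markers. It held the only count of Il7, the lymphoid growth factor, in the series. Scrublet marked this barcode as a doublet, that is, possibly more than 1 cell; it was the only one so marked among the 18. It alone had 78 of 109 Cxcl12 and 85 of 117 Igfbp5 counts of the Pot1a wt/wt libraries.

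In the remaining cells with both marker sets, niche genes stood beside Fabp4 and endothelial genes. In Pot1a fl/fl 1 a cell of 8126 counts held 43 Sparc, 36 Fabp4, 17 Col1a2, 12 Col1a1, 11 Cxcl12, 4 Kitl, 3 Igfbp5 and 2 Cspg4 counts. It had 14 mesenchymal and 9 endothelial markers, and 31 of the 33 Rgs5 counts of the series, a pericyte gene, together with 64 of 84 Col4a1 counts, a basement membrane collagen. A second cell of that library had 50 Fabp4, 18 Sparc, 11 Cxcl12 and 3 Kitl counts with 8 markers of each set, including 8 counts of Stab2, a scavenger receptor of sinusoidal endothelium. The cell of Pot1a fl/fl 2 (21 Fabp4, 10 Sparc, 8 Cxcl12 and 7 Igfbp5 counts) and a pair in Pot1a wt/wt 4 (14 and 12 Fabp4, 19 and 9 Sparc, 10 and 13 Cxcl12, 23 and 4 Igfbp5 counts) were alike. Kitl was confined to this class in these libraries, with 14 of 14 counts in 4 of its cells. Whether these barcodes hold 1 cell or a stromal and an endothelial cell together was not tested beyond Scrublet.

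Cells of the endothelial class carried Fabp4 and Sparc and few other members, and 5 of the 6 had 1 or 2 mesenchymal markers as well. The one with most member counts, in Pot1a fl/fl 4, held 31 Fabp4 and 7 Sparc counts with 6 endothelial markers, among them Kdr (6 counts), the receptor for vascular endothelial growth factor, and 2 mesenchymal markers (Vcam1 5 counts, Lepr 1). In Pot1a wt/wt 4 such a cell held 17 Fabp4, 10 Sparc, 2 Cxcl12, 1 Igfbp5 and 1 Col1a2 counts. The shallow cells of this kind in Pot1a fl/fl 3 (752 and 384 counts) held 5 and 4 Fabp4 counts. Of 225 Fabp4 counts, 153 lay in cells with both marker sets, 57 in the endothelial class, 0 in the mesenchymal class and 15 elsewhere. By contrast, 643 of 729 Col1a1 counts lay in the mesenchymal class and 0 in the endothelial class. Among the 18 cells, 4 held no member: 2 with 3 mesenchymal markers and 2 with 3 endothelial markers, of which the one in Pot1a fl/fl 2 had 9 of 9 megakaryocyte markers.

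**Figure D4:**
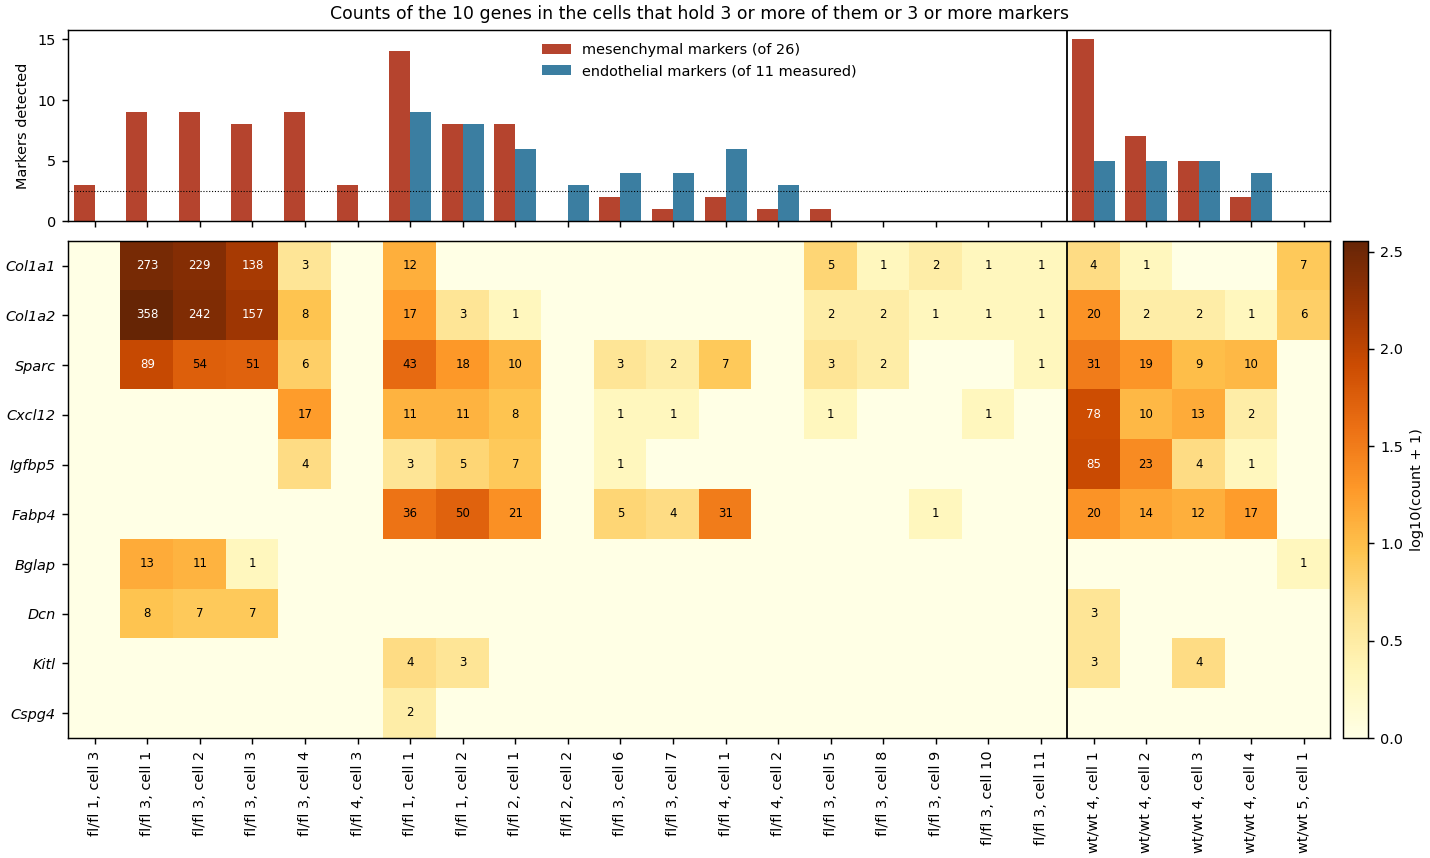
Counts of the 10 genes (printed, colour on a log10(count + 1) scale) in the 24 cells that held 3 or more of them or 3 or more markers of a set, Pot1a fl/fl cells left of the line and Pot1a wt/wt cells right of it; bars above give the markers detected, with the cut at 3 dotted. Col1a1, Col1a2, Bglap and Dcn are high in cells 1 to 3 of Pot1a fl/fl 3, and Cxcl12, Igfbp5, Fabp4 and Kitl in cells with both marker sets.

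Cells with 3 or more mesenchymal markers numbered 3, 1, 4 and 1 of 100 in Pot1a fl/fl 1 to 4, against 0, 0, 0, 3 of 99 and 0 in Pot1a wt/wt 1 to 5. Their share averaged 2.25 ± 1.5% (SD, n = 4) in Pot1a fl/fl libraries and 0.606 ± 1.36% (SD, n = 5) in Pot1a wt/wt libraries, a difference of 1.64 percentage points (two-sided exact permutation p = 0.135; 95% interval by inversion of the test -0.50 to 3.65). A library with 0 such cells allows a share of up to 3.62% (exact). Without Pot1a wt/wt 4 the difference was 2.25 points (exact permutation p = 0.0286, the smallest that 4 against 4 libraries allow). The remaining 4 control libraries held 0 of the 18 cells. Of the 9 Pot1a fl/fl cells with 3 or more mesenchymal markers, 2 held 0 counts of the members. Of these 2, 1 lay in an unnamed cluster. The other lay in a B-lineage-like cluster and was the only cell of Pot1a fl/fl 4 counted here. Cells with 3 or more endothelial markers were distributed alike, but in part they were the same cells, since 6 cells had 3 or more of both sets. They numbered 2 in each Pot1a fl/fl library and 4 in Pot1a wt/wt 4, and 0 in the other controls. Their share averaged 2% in Pot1a fl/fl and 0.808% in Pot1a wt/wt libraries (two-sided exact permutation p = 0.365). The summed level of the 11 endothelial markers ran from 103 to 167 CPM in Pot1a fl/fl libraries and from 39.7 to 181 CPM in Pot1a wt/wt libraries, with 0 of 11 at zero in either group. Megakaryocyte and platelet markers were high in some Pot1a fl/fl libraries too. Their 9 genes summed to 32.2, 1441, 1172 and 125 CPM in Pot1a fl/fl 1 to 4, against 7.95, 16.3, 9.15, 56.4 and 90.7 CPM in Pot1a wt/wt 1 to 5, with 0 of 9 at zero in the Pot1a fl/fl group and 1 of 9 in the Pot1a wt/wt group. Pf4, platelet factor 4, averaged 401 ± 459 CPM (SD, n = 4) in Pot1a fl/fl libraries and 10.7 ± 14.8 CPM (SD, n = 5) in Pot1a wt/wt libraries. Its unadjusted exact permutation p was 0.0159, and its adjusted p over all genes 0.923. Much of it lay in single cells: 1 cell held 6 of 10, 69 of 127, 116 of 123 and 37 of 39 Pf4 counts in Pot1a fl/fl 1 to 4. Of the Pot1a fl/fl cells counted with endothelial markers, 1 held 9 of 9 megakaryocyte markers. The part of endothelial and megakaryocyte cells in the difference in mesenchymal share was not tested.

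Outside the 18 cells the 10 genes were found as traces. The 881 other cells held 215 counts, with at most 7 of a gene in a cell. Most were of Col1a1 and Col1a2, at 13.5, 10.9, 559 and 10.7 CPM in the other cells of Pot1a fl/fl 1 to 4, and 11.9, 26.1, 21.4, 40.0 and 230 CPM in those of Pot1a wt/wt 1 to 5. So Pot1a fl/fl 3 and Pot1a wt/wt 5, the shallowest libraries, stood above the rest, although no cell of Pot1a wt/wt 5 had 3 markers. In that library 1 cell of 527 counts held 7 Col1a1, 6 Col1a2 and 1 Bglap count and 2 counts of Col11a1 with 0 of the 26 mesenchymal markers.

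The traces were spread over cell types that should lack collagen. In Pot1a fl/fl 3, Col1a1 or Col1a2 was counted in 36.4% of 22 B-lineage-like cells (median 869 counts per cell), 40.0% of 15 erythroid-like cells (855) and 36.7% of 30 granulocyte-like cells (969.5). In Pot1a wt/wt 5 these shares were 12.5%, 27.8% and 16.7%. Over all libraries they were 9.73% of 226 B-lineage-like, 10.8% of 157 erythroid-like and 9.74% of 267 granulocyte-like cells. Monocyte/macrophage-like cells stood at 7.58% of 66, and cells of unnamed clusters at 14.5% of 165. The intervals of these pooled shares overlap, but they cover counting error only and take cells, not libraries, as units. The source of these counts was not tested. With each cell thinned to 500 counts, collagen was found in 17.9% of the other cells of Pot1a fl/fl 3 (12 shallower cells left out) and in 1.03%, 0% and 0% of those of Pot1a fl/fl 1, 2 and 4, against 8.0% in Pot1a wt/wt 5 and 0% to 3.16% in Pot1a wt/wt 1 to 4. In Pot1a fl/fl 3, Col1a1 made up 45.7% of the collagen counts inside the marker cells and 54.7% of those outside.

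**Figure D5:**
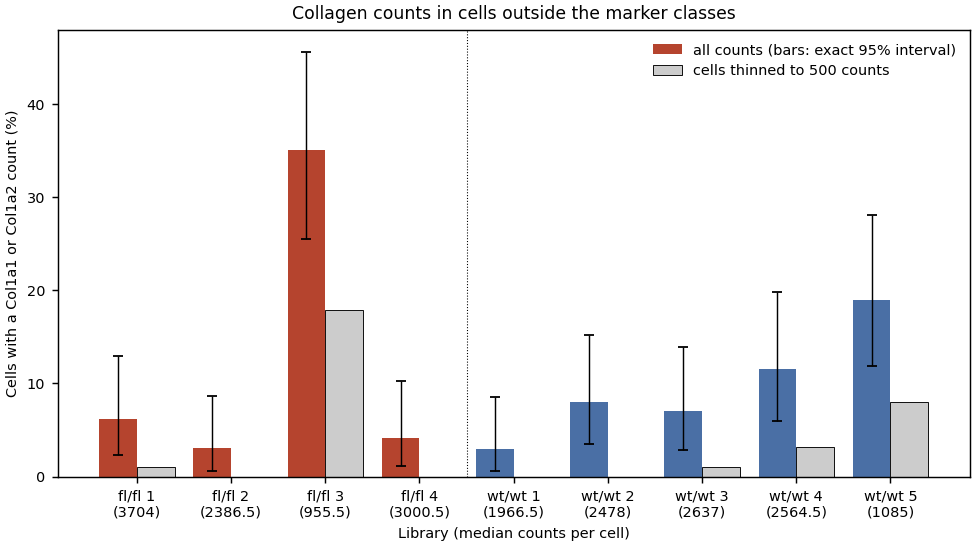
Share of cells outside the marker classes with a Col1a1 or Col1a2 count in each library (Pot1a fl/fl left of the dotted line), from all counts (coloured, with exact 95% intervals for counting error) and after thinning to 500 counts per cell (grey); median counts per cell are given under each library. Pot1a fl/fl 3 and Pot1a wt/wt 5 are highest on both measures, at 17.9% and 8.0% after thinning.

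6 cells outside the marker classes still held 3 of the 10 genes or more, 5 of them in Pot1a fl/fl 3 and 1 in Pot1a wt/wt 5. They held 3 to 14 member counts. The deepest of those in Pot1a fl/fl 3 (4709 counts) had 5 Col1a1, 3 Sparc, 2 Col1a2 and 1 Cxcl12 counts with 4 of Ptprc, the pan-leukocyte gene CD45.

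Genes most like the members were those with the largest share of their counts in the 19 cells that held 3 or more members, among 8432 genes with at least 20 counts; the median gene had 1.02% there. The 10 leading ones were Col11a1 (97.6%), Rgs5 (97%), Col4a1 (96.4%), Col5a2 (96.0%), Gpr116 (92.5%), Smpd3 (90.5%), Fstl1 (88.9%), Igf1 (87.5%), Adamts1 (85.0%) and Col4a2 (84.9%). That they lie in cells with the members follows from this rule, so only their split between kinds of cells is described. Col5a2 and Fstl1 are also among the mesenchymal markers that chose the cell classes. Col11a1 and Col5a2, fibrillar collagens, and Smpd3, a sphingomyelinase needed for bone mineralisation, had 38 of 42, 17 of 25 and 17 of 21 counts in the 3 Bglap-positive cells of Pot1a fl/fl 3. Col4a1 and Col4a2, the basement membrane collagens, had 0 counts there and 74 of 84 and 40 of 53 in cells with both marker sets. Igf1, insulin-like growth factor, had 16 of 24 counts in Pot1a wt/wt 4, the library with most Igfbp5.

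Of 47 further matrix, stromal and pericyte genes, 47 had counts, 2 were abundant enough for edgeR (Igfbp4, log2 0.75, adjusted p = 0.756; Vcam1, log2 0.32, adjusted p = 0.940) and 0 passed, against 0.0658% of all genes. Their median log2 fold change was 0.53 over these 2, against 0.00 over all genes tested. With no filter, 4 were called higher (Col11a1, Col5a2, Rgs5 and Serpinf1), against 0.301% of all 15264 genes, and 0 lower, against 0.151%. The counts of Col11a1 and Rgs5 came chiefly from the cells of Pot1a fl/fl 3 and Pot1a fl/fl 1 described above. The 3 Bglap-positive cells of Pot1a fl/fl 3 also held 17 of 25 Col5a2 counts, and 4, 3 and 6 Serpinf1 counts. These calls are thus not independent of those of the 10 genes.

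The receptors of the niche factors lay in other cells. Cxcr4 had 151 counts, 0 in the 18 marker cells, 51 in B-lineage-like and 49 in granulocyte-like cells; it averaged 73.0 ± 14.3 CPM (SD, n = 4) in Pot1a fl/fl libraries and 49.9 ± 37.8 CPM (SD, n = 5) in Pot1a wt/wt libraries (exact permutation p = 0.294). Kit had 75 counts, 0 in marker cells, and averaged 41.2 ± 20.2 CPM against 16.4 ± 10.4 CPM (exact permutation p = 0.0635; unadjusted, adjusted p over all genes 0.923). Il7r, the receptor for Il7, had 274 of 307 counts in B-lineage-like cells. Among other stromal factors Angpt1 had 8 of 56 counts in marker cells and Csf1 3 of 12, and Angpt1 lay chiefly in cells of unnamed clusters (35 counts). Vcam1 (62 of 103) and Lepr (7 of 9) had more of their counts in marker cells, but both are among the markers that chose those cells.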

How the data were processed

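Whole BM cells of 9 libraries were profiled by Drop-seq. The authors aligned the reads to mm10 with STAR and deposited read counts per gene and barcode made with the Drop-seq software. Versions, annotation, whether reads of 1 molecule were collapsed, and how the 100 barcodes were chosen are not stated in the sources used. All 900 barcodes were read, and those with at least 200 counts and at most 25% mitochondrial counts kept. Counts were summed per library and compared by the quasi-likelihood test of edgeR 4.0.16, with TMM scaling, filterByExpr and a Benjamini-Hochberg threshold of 0.05 (DESeq2 1.42.0, tried as alternative, gave no member an adjusted p), and CPM by exact permutation. The edgeR step was tested on simulated data. Cells were clustered with Seurat 5.3.0 without the 10 genes (resolution 1); a cluster took a cell type name, as X-like, where at least 3 fixed markers stood among its 50 leading genes. No mesenchymal cluster formed, so a second definition, 3 or more markers per cell, took its place, and the same cut for endothelial markers was set after seeing the data. Doublets were marked by Scrublet (scanpy 1.11.5) and kept. Gene positions are from GENCODE on GRCm38. The 10 genes, the named genes (all members, the 10 most like them and a fixed list of partners) and the lists were chosen with earlier results of these data known. Intervals and limits cover counting error only.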

Additional observations from a re-analysis of the deposited data

Results flagged for a closer look

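A library far from the others of its group was found in 16 of the 20 groups tested (10 genes in 2 genotypes), in that the gap to the next library exceeded Dixon's limit. This limit flags about 1 in 20 groups of normally distributed values. That rate does not apply here, since a flag is certain where only 1 library of a group had counts. In Pot1a fl/fl 3, Col1a1 (5676 CPM), Col1a2 (6647 CPM), Sparc (1783 CPM), Bglap (209 CPM) and Dcn (184 CPM) stood apart, and in Pot1a fl/fl 1, Fabp4 (191 CPM) and Kitl (15.0 CPM). In Pot1a wt/wt 4 it was Sparc (223 CPM), Cxcl12 (315 CPM), Igfbp5 (336 CPM), Fabp4 (199 CPM), Dcn (8.91 CPM) and Kitl (20.8 CPM), in Pot1a wt/wt 5 Col1a1 (140 CPM) and Bglap (6.98 CPM), and in Pot1a wt/wt 2 Cspg4 (3.26 CPM, 1 count). Most of these values came from the few cells described above, so the genes of a library are not independent of each other. Values of the other libraries were often 0, where 1 count is enough to stand apart.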

How the results depend on the processing

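The number of the 10 genes called by edgeR was 0 under DESeq2 size factors, with the pair Pot1a wt/wt 2 and 3 as 1 library, with the replicate block and without doublets, 7 with no filter, and 0 to 1 with each library left out in turn (1 without Pot1a wt/wt 4). Of the 47 other genes 0 were called except with no filter (4); with each library left out the number was 0. The difference in the share of cells with mesenchymal markers ran from 1.06 to 2.25 points with a library left out, passing only without Pot1a wt/wt 4. It was 1.87 points without doublets (exact permutation p = 0.0635), a setting that drops 1 of the 3 such cells of Pot1a wt/wt 4. With the cluster formed when the members were kept it was 1.54 points (exact permutation p = 0.373). With the replicate block it was 1.49 points (exact permutation p = 0.375, smallest possible 0.125). Same-numbered libraries did not deviate together (correlations -0.161 to 0.01), so the numbers were not taken as pairs. With the replicate block Col1a2 came to 1.82 on the log2 scale and Fabp4 to 2.16. The share of the member counts in cells with 3 or more mesenchymal markers, with or without 3 endothelial ones, was 88.4%, 92.4% in the cluster formed when the members were kept among the features, 91.1% with cells thinned to 500 counts, and 75.0% to 90.2% with a library left out (lowest without Pot1a fl/fl 3). Single genes passing the permutation test numbered 0, and 0 to 1 with a library left out (Cspg4 without Pot1a fl/fl 3, p = 0.0357; Fabp4 without Pot1a wt/wt 4, p = 0.0286). With a library left out the CPM difference turned sign for Col1a1 (-21.6 to 1870), Col1a2 (-26.5 to 2187), Bglap (-1.40 to 68.4), Dcn (-0.60 to 60.8), Cxcl12 (-40.3 to 60.9), Igfbp5 (-68.3 to 15.6) and Kitl (-4.16 to 3.76), and with scaling per cell for Cxcl12 (66.5); the log2 fold change of Col1a2 ran from -0.96 to 5.75. DESeq2 gave an adjusted p to none of the 10 or of the 47 genes, and so no count of calls. Clustering without integration formed no mesenchymal cluster and gave no value. Depth limits all of this: 3 counts of a gene equal 25.1 CPM in Pot1a fl/fl 3 and 6.45 CPM in Pot1a fl/fl 1, and 1 cell is about 1% of a library.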
